A study of Mus musculus with 24 samples.

Results

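Fatty acid oxidation genes were followed in the inguinal fat pad of mice, a depot of white fat under the skin. The set was every row of the deposited table whose symbol stood in a list of 32 enzymes, carriers and partners, and all 32 were found among the 16233 genes of the table. RNA sequencing covered 24 libraries in 4 groups of 6, all from male C57BL6 mice that were 10 to 11 weeks old by the series' design text. RUN animals had a 1-hour bout of exercise and SED animals spent the same hour on an artificial treadmill. Each treatment was sampled in the early active phase (ZT15) and in the early rest phase (ZT3), where ZT counts hours after lights on. The labels give the time of sampling but not the hours elapsed since the bout, and they name no genetic modification. Nothing in them states that every library came from its own mouse, and p-values therefore rest on the spread from library to library. A library is named by its group and a replicate number, as in ZT15_RUN_6, and the numbers pair no samples.

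Fatty acids are burned in mitochondria by beta-oxidation, a cycle that shortens an activated fatty acid step by step and passes electrons to the respiratory chain. Long chains enter through the carnitine shuttle, whose first enzyme, carnitine palmitoyltransferase, is inhibited by malonyl-CoA, the precursor of fatty acid synthesis. White fat mainly stores and releases fatty acids, whereas brown fat and skeletal muscle are rich in this machinery.

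Values are the authors' normalized signal, in which 1 read was worth 0.0278 to 0.0601 depending on the library. Fold changes are log2 differences of value + 1 with their standard error (SE) from limma, with p-values adjusted by the Benjamini-Hochberg method over all 16233 genes and a threshold of 0.05. The fat markers were present in every library: the summed signal of 10 white adipocyte genes ran between 18665 and 56738, and none of them was at 0.

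Several libraries stood apart before any comparison. Ucp1, the uncoupling protein of thermogenic fat, was above 100 in ZT15_RUN_1 (532), ZT15_RUN_6 (526) and ZT15_SED_1 (208). The same 3 libraries held much Myh4, a fast muscle myosin, with 8995, 22114 and 18297. Myh4 was also above 5000 in ZT3_SED_1 (8207), ZT3_SED_4 (6967) and ZT3_RUN_5 (5208), where Ucp1 was below 100. Cd79a, a B cell marker of the lymph node that lies in this depot, was above 5 in ZT3_RUN_4 (99.2), ZT15_SED_5 (54.6) and ZT15_SED_3 (14.1). Adipoq, the adipocyte hormone adiponectin, was lowest in ZT3_RUN_4, at 1101. In bulk tissue fewer cells of a type and less RNA per cell cannot be told apart.

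The oxidation genes followed some of these libraries. ZT15_RUN_6 held the highest value of 23 of the 32 genes, and ZT3_RUN_4 the lowest value of 24. Averaged over the 32 genes, the deviation from each gene's mean was 0.75 in ZT15_RUN_6, 0.59 in ZT15_RUN_1, 0.27 in ZT15_SED_1 and -0.65 in ZT3_RUN_4 on the log2 scale. In the other Cd79a-rich libraries it was -0.15 (ZT15_SED_5) and 0.03 (ZT15_SED_3). In the Myh4-rich libraries of ZT3 it was -0.26 (ZT3_SED_1), -0.22 (ZT3_SED_4) and -0.02 (ZT3_RUN_5). ZT3_RUN_3, rich in none of these markers, had -0.30. The 3 Ucp1-rich libraries also had the highest mean z scores of 16 genes of mitochondrial content, with 2.47, 2.07 and 1.47, and ZT3_RUN_4 had the lowest, -1.82. Counts and medians of the set are given below with and without libraries of these kinds. In the lists of related genes this is done for calls between ZT15 and ZT3 in exercised mice.

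**Figure D1:**
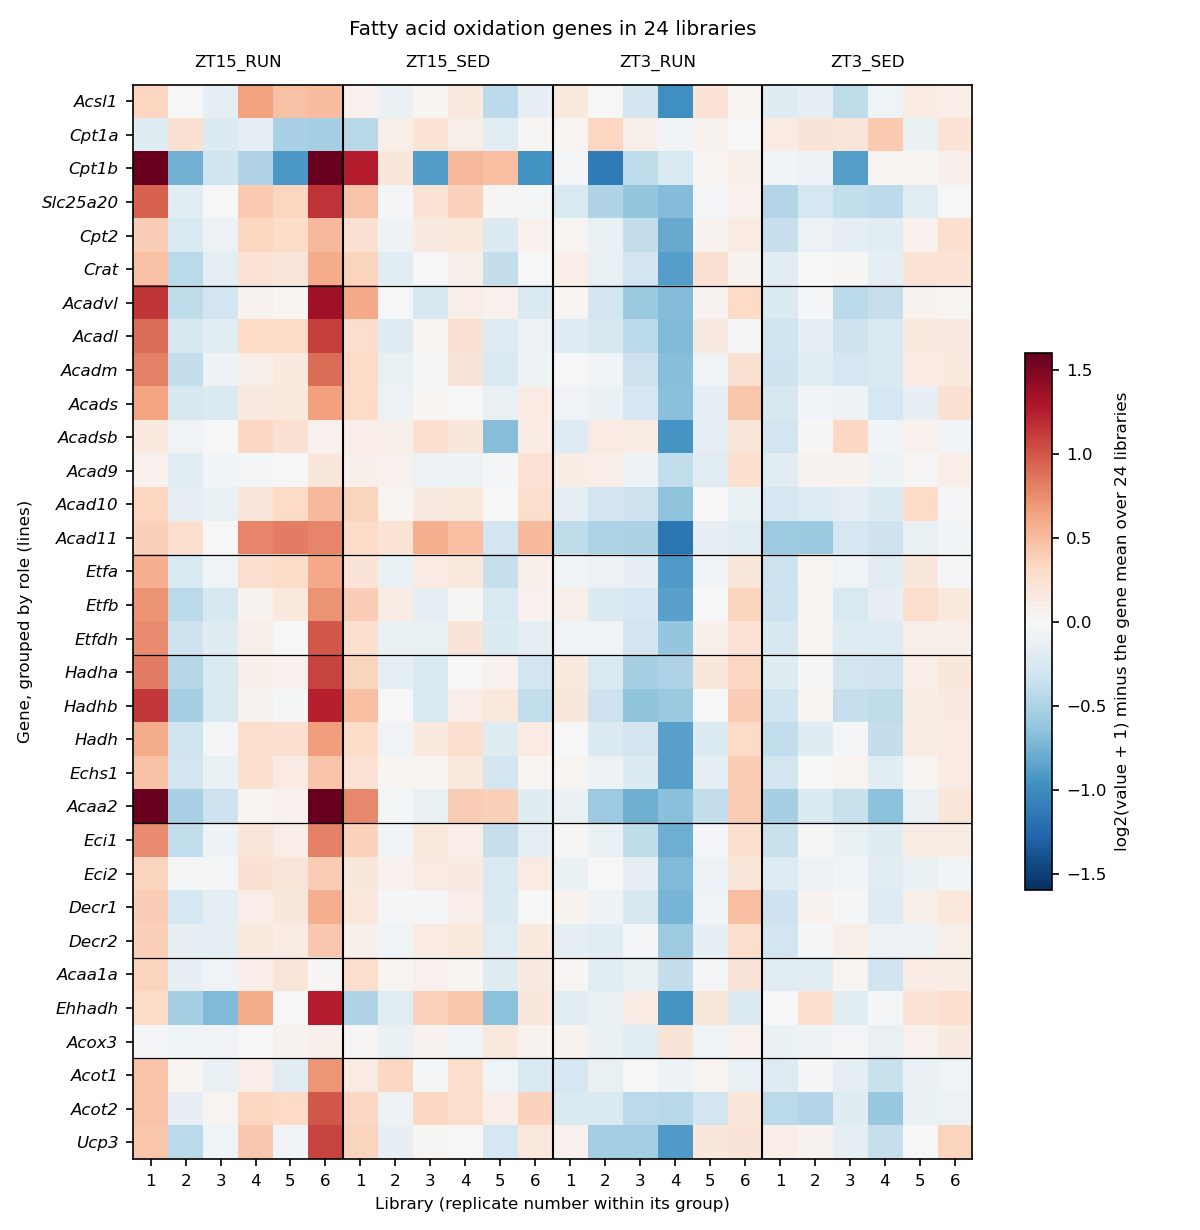
Each cell shows log2(value + 1) of a gene in a library minus that gene's mean over 24 libraries, with genes grouped by role and libraries by group. The columns of ZT15_RUN_1 and ZT15_RUN_6 are red for most genes and the column of ZT3_RUN_4 is blue for most. Cpt1a is blue in both of those ZT15 columns, and Acox3 is the single gene above its mean in ZT3_RUN_4.

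**Figure D2:**
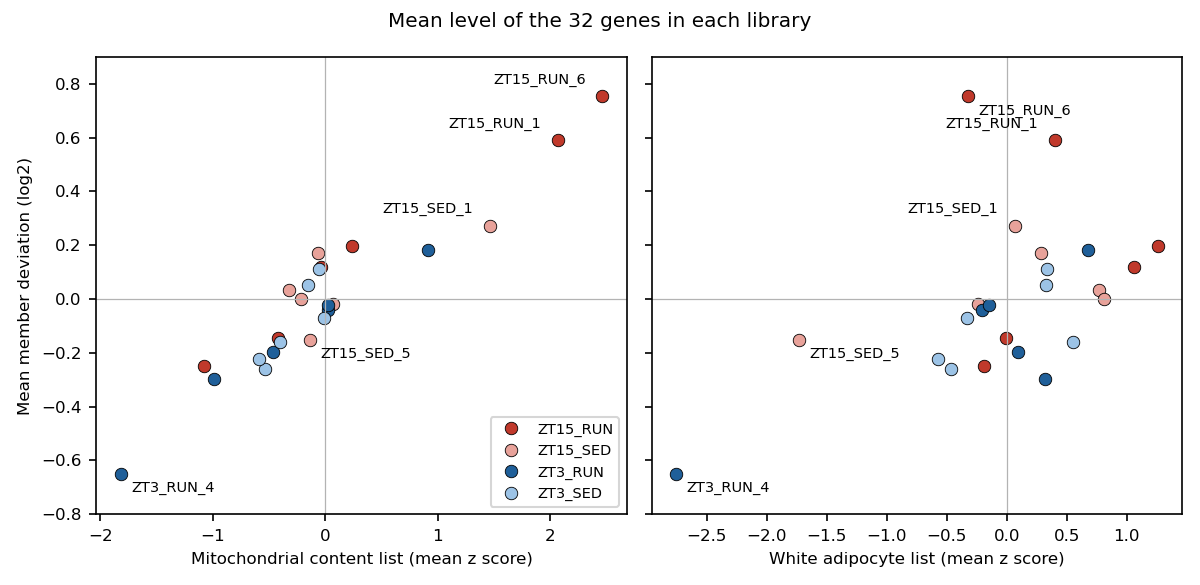
Each point is 1 of 24 libraries, with the mean log2 deviation of the 32 genes on the vertical axis and the mean z score of the mitochondrial content list (left) or of the white adipocyte list (right) on the horizontal axis. ZT15_RUN_6 (0.75) and ZT15_RUN_1 (0.59) lie at the top and far right of the left panel, and ZT3_RUN_4 (-0.65) lies at the bottom left of both panels.

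Levels differed widely among the genes. Per kilobase of transcript, Acsl1, the acyl-CoA synthetase that activates long-chain fatty acids in adipocytes, was the most abundant, with a mean signal of 630 per kb over the 24 libraries. Hadh, the short-chain hydroxyacyl-CoA dehydrogenase, followed with 222 per kb and Acadm, the medium-chain acyl-CoA dehydrogenase, with 196 per kb. At the low end stood Acot1, a cytosolic acyl-CoA thioesterase (0.275 per kb), Cpt1b (1.06), Acad10 (6.13), Acot2 (7.35) and Decr2 (11.1).

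Cpt1a, the liver form of carnitine palmitoyltransferase 1, averaged 16.7 per kb, and Cpt1b, the muscle form, 1.06 per kb. Hadha and Hadhb, the alpha and beta subunits of the mitochondrial trifunctional protein, averaged 103 and 99.7 per kb, closer than their spread within groups (SD of 0.39 and 0.47 on the log2 scale). Etfa and Etfb, the paired subunits of the electron transfer flavoprotein, averaged 146 and 59.0 per kb.

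Spread between libraries of a group was as uneven. Acox3, a peroxisomal oxidase of branched chains, was the steadiest of the set, with an SD within groups of 0.10 on the log2 scale and a 1.31-fold range over all 24 libraries. Cpt1b had the widest, with an SD of 0.91 and a 34.4-fold range. Its signal reached 16.3 in ZT15_RUN_6, 12.1 in ZT15_RUN_1 and 6.76 in ZT15_SED_1, and no other library exceeded 3.66. Acaa2, the mitochondrial 3-ketoacyl-CoA thiolase, came next with an SD of 0.59, and its 3 highest values, 598, 521 and 297, stood in the same libraries in the same order.

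In exercised mice, 4 of the 32 genes passed the threshold between ZT15 and ZT3, all of them higher at ZT15, where 4.19% of all genes passed and 2.56% passed with a higher value. They were Acad11, Slc25a20, Acot2 and Acad10. In sedentary mice none passed in limma, where 1.18% of all genes did, and 4 had an unadjusted p under 0.05, where 12.1% of all genes had. Those 4 were the same genes. In the sedentary comparison edgeR, run on the recovered reads, also called none, where it called 1.18% of all genes. DESeq2 called 2, Acad11 and Acot2, where it called 3.38% of all genes.

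Acad11, an acyl-CoA dehydrogenase that also carries a phosphotransferase-like domain, rose most. Its lowest, median and highest values were 229, 342 and 403 in ZT15_RUN libraries, against 101, 166 and 207 in ZT3_RUN libraries. In sedentary mice they were 183, 299 and 340 at ZT15, against 151, 184 and 221 at ZT3. Every exercised library at ZT15 lay above every exercised library at ZT3, a separation found for 1.50% of all genes in that direction and for no other gene of the set. In sedentary mice only ZT15_SED_5, one of the Cd79a-rich libraries, overlapped the ZT3 range. The difference was 0.98 ± 0.18 (log2, SE; limma adjusted p = 0.00291) in exercised mice and 0.62 ± 0.18 (adjusted p = 0.0916) in sedentary mice. The exercised difference passed in all 18 alternative settings, with a largest adjusted p of 0.0395, and with any 1 of the 24 libraries left out, with a largest adjusted p of 0.0103.

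Slc25a20, the carrier that swaps acylcarnitine for carnitine across the inner mitochondrial membrane, was 80.9, 120 and 205 in ZT15_RUN libraries (lowest, median, highest), against 56.0, 70.8 and 95.6 in ZT3_RUN libraries. It was 89.9, 99.3 and 126 in ZT15_SED libraries, against 65.5, 72.2 and 91.6 in ZT3_SED libraries. In both pairs the groups overlapped at their edges. The exercised difference was 0.78 ± 0.18 (limma adjusted p = 0.0185) and the sedentary one 0.46 ± 0.18 (adjusted p = 0.289). The 2 highest values stood in ZT15_RUN_6 and ZT15_RUN_1, and without ZT15_RUN_1 the exercised adjusted p was 0.0505. The exercised call was lost in 4 of the 18 alternative settings, with an adjusted p of at most 0.191.

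Acot2, the mitochondrial acyl-CoA thioesterase that frees fatty acids from CoA, was 14.7, 19.4 and 20.4 in ZT15_SED libraries, against 9.85, 12.3 and 14.5 in ZT3_SED libraries. Those groups did not overlap, which held for 1.20% of all genes in that direction and for no other gene of the set. In exercised mice it was 14.1, 19.8 and 31.9 at ZT15, against 11.1, 12.8 and 18.0 at ZT3, with some overlap. The difference was 0.57 ± 0.15 in exercised mice (limma adjusted p = 0.0313) and 0.54 ± 0.15 in sedentary mice (adjusted p = 0.0786), and the 2 differed by 0.03 ± 0.21 (95% interval -0.41 to 0.47). In exercised mice it missed the threshold in 8 of the 24 omissions of 1 library, with an adjusted p of at most 0.0785, and in 7 of the 18 alternative settings, with an adjusted p of at most 0.252. Acot1, its cytosolic relative on the same stretch of chromosome 12, gave 0.26 ± 0.13 and 0.21 ± 0.13 in exercised and sedentary mice, and reads of such close copies may have been shared between them.

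Acad10, a further acyl-CoA dehydrogenase with a phosphotransferase-like domain, was 20.7, 27.7 and 33.6 in ZT15_RUN libraries, against 14.4, 19.6 and 23.1 in ZT3_RUN libraries. The groups overlapped in part. Its difference was 0.44 ± 0.12 in exercised mice (limma adjusted p = 0.0434) and 0.26 ± 0.12 in sedentary mice (adjusted p = 0.400), and the exercised call was lost in 15 of the 24 omissions of 1 library, with an adjusted p of at most 0.116, and in 9 of the 18 alternative settings, with an adjusted p of at most 0.334.

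**Figure D3:**
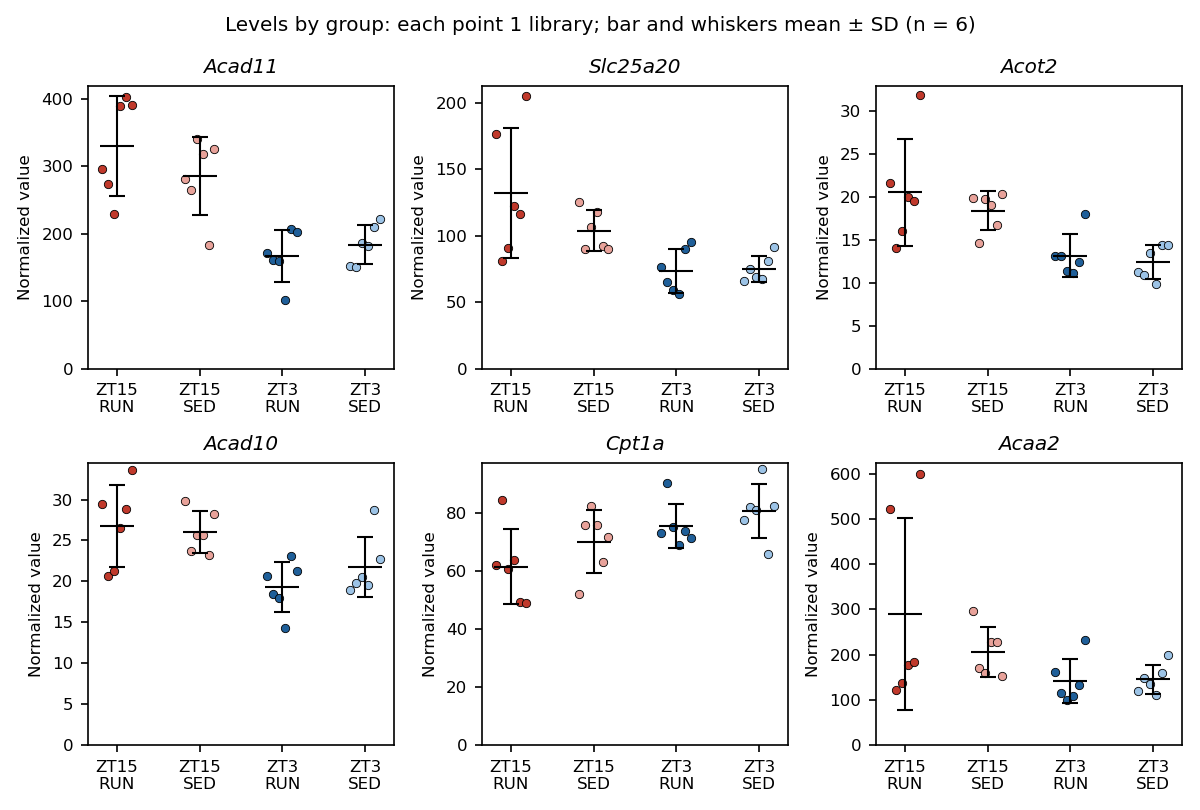
Normalized values of Acad11, Slc25a20, Acot2, Acad10, Cpt1a and Acaa2 are drawn for each library, with groups in the order ZT15 RUN, ZT15 SED, ZT3 RUN and ZT3 SED, and bars and whiskers give mean ± SD (n = 6). Acad11 lies between 229 and 403 in ZT15 RUN libraries and between 101 and 207 in ZT3 RUN libraries, and Acaa2 has 2 points, at 598 and 521, far above the others in ZT15 RUN.

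Because the same genes led in both treatments, which use different libraries, the time difference was also averaged over them, a comparison chosen after seeing the data. In this average 5 of the 32 genes passed, all higher at ZT15, where 7.37% of all genes passed and 4.24% with a higher value. Acad11 gave 0.80 ± 0.13 (limma adjusted p = 0.000269), Slc25a20 0.62 ± 0.13 (adjusted p = 0.00443), Acot2 0.56 ± 0.11 (adjusted p = 0.00179) and Acad10 0.35 ± 0.09 (adjusted p = 0.0142). Eci2, an enoyl-CoA isomerase that prepares unsaturated chains for the cycle, gave 0.26 ± 0.08 (limma adjusted p = 0.0419). The Eci2 call was lost in 18 of the 24 omissions of 1 library. It was also lost in 7 of the 18 alternative settings, with an adjusted p of at most 0.395. The Acad10 call was lost in 3 of the 18 settings, with an adjusted p of at most 0.180. Acad11, Slc25a20 and Acot2 passed in all 18 alternative settings and all 24 omissions.

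The promoter of Eci2 was searched for motifs but is not printed. Cpt1a ran the other way, and Hadha shares its start region with Hadhb. The promoters of both are shown with those of Acad11, Slc25a20, Acot2 and Acad10, so that sequence can be set beside level. They are RefSeq sequences of GRCm38.p6 that run over 250 bases before and 50 bases after the annotated start, 5′ to 3′ on the gene's strand. Acad11 lies at chr9:104063474-104063773 (+), Slc25a20 at chr9:108661886-108662185 (+), Acot2 at chr12:83987611-83987910 (+), Acad10 at chr5:121660461-121660760 (-), Cpt1a at chr19:3323051-3323350 (+) and Hadha at chr5:30154931-30155230 (-). Capitals mark the letters of any searched motif on either strand.
Acad11: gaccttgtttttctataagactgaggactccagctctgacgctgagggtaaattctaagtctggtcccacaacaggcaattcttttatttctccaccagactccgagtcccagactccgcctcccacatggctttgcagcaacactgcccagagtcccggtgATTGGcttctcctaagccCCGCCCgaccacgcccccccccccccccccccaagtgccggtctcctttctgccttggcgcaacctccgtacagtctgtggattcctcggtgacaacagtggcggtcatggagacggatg
Slc25a20: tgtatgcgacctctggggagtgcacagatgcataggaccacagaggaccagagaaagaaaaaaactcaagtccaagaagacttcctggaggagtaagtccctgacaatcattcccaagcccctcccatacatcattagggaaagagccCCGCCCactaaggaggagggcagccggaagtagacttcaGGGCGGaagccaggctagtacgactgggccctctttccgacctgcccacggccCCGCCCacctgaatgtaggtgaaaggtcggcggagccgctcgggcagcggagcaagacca
Acot2: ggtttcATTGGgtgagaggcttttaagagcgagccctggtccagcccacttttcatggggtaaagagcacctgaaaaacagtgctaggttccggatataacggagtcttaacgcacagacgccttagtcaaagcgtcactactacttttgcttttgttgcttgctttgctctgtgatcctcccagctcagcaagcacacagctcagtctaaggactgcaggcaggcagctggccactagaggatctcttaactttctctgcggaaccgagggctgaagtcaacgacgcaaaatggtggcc
Acad10: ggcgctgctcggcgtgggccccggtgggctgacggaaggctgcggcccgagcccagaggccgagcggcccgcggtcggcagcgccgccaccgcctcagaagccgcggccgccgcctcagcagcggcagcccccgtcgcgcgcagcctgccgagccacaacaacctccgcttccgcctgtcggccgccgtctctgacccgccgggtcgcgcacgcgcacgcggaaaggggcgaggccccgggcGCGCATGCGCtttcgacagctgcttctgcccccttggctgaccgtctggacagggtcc
Cpt1a: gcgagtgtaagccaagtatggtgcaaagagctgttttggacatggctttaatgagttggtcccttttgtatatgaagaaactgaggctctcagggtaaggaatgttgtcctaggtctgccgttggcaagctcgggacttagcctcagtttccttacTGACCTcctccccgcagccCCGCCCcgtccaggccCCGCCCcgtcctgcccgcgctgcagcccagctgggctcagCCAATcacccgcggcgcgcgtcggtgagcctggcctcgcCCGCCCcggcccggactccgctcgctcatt
Hadha: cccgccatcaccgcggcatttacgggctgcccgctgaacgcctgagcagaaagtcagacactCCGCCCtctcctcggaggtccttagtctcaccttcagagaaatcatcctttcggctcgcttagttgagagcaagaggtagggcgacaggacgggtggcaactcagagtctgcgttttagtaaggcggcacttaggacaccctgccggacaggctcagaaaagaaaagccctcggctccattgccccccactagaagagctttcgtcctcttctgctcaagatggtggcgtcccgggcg

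A promoter was found for 27 of the 32 genes, and motifs were searched on both strands in these and in the promoters of 27025 genes. The shares also stand beside those of the 12259 genes of the table that had a promoter. GGGCGG, the GC box, was present in 21 of the 27 genes (77.8%), 38.2% of all genes and 63.5% of the genes of the table. CCAAT was present in 12 (44.4%), in 41.1% of all genes and in 42.0% of the genes of the table. AGGTCA, a core site of nuclear receptors, was present in 5 (18.5%), 18.1% of all genes and 15.5% of the genes of the table.

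The palindrome bound by NRF1, a factor of mitochondrial biogenesis, was present in 2 of the 27 (7.41%), Acad10 and Etfdh, against 1.07% of all genes and 2.03% of the genes of the table. It is the run of capitals in the Acad10 sequence, where it begins at position -8 from the annotated start. The DR1 repeat bound by PPAR receptors, which can overlap AGGTCA, was in none of the 27 windows, in 0.451% of all genes and in 0.286% of the genes of the table. CACGTG, the E-box of clock activators, was in none of the 27, in 8.09% of all genes and in 11.0% of the genes of the table. TTATGTAA, the D-box, was in none, in 1.11% of all genes and in 0.775% of the genes of the table. The windows of Hadha and Hadhb, which are transcribed away from each other, share 228 bases at chr5:30155003-30155230.

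Across the whole set, the difference between ZT15 and ZT3 was above 0 for 30 of 32 genes in exercised mice, with a median of 0.36, where 48.9% of all genes were above 0. In sedentary mice it was above 0 for 29 of 32, with a median of 0.12, where 54.0% of all genes were above 0. In exercised mice 17 of the 32 had an unadjusted p under 0.05, 16 higher and 1 lower, where 20.8% of all genes had and 10.7% had with a higher value. Both time differences were above 0 for 28 genes (87.5%), against 29.9% of all genes. The difference was the larger in exercised mice for 29 genes (90.6%), against 50.7% of all genes.

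These set-wide values moved with the libraries that stood apart. Without the 3 Ucp1-rich libraries the median was 0.12 in exercised mice with 26 genes above 0, and 0.05 in sedentary mice with 26 above 0. Without these and the 3 Cd79a-rich libraries together it was 0.03 in exercised mice with 18 above 0, and 0.11 in sedentary mice with 28 above 0. Without the 6 libraries with Myh4 above 5000 it was 0.13 in exercised mice with 28 above 0, and -0.01 in sedentary mice with 11 above 0. With mitochondrial content as a covariate it was 0.10 in exercised mice with 25 above 0, and -0.00 in sedentary mice with 16 above 0. Without the 3 Cd79a-rich libraries alone it was 0.26 in exercised mice with 30 above 0, and 0.18 in sedentary mice with 29 above 0. With muscle and lymphocyte scores as covariates it was 0.31 in exercised mice with 30 above 0, and 0.26 in sedentary mice with 30 above 0. All 16 genes of the mitochondrial content list were themselves above 0 in both time comparisons, with a median of 0.31 in exercised mice and 0.14 in sedentary mice. Of the 10 white adipocyte genes 9 were above 0 in exercised mice (median 0.26) and 5 in sedentary mice (median -0.03). Of the 10 thermogenic genes 9 were above 0 in exercised mice (median 0.80) and 7 in sedentary mice (median 0.19). Of the 16 muscle genes 0 were above 0 in either treatment, and of the 20 lymphocyte genes 0 in exercised and 20 in sedentary mice.

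**Figure D4:**
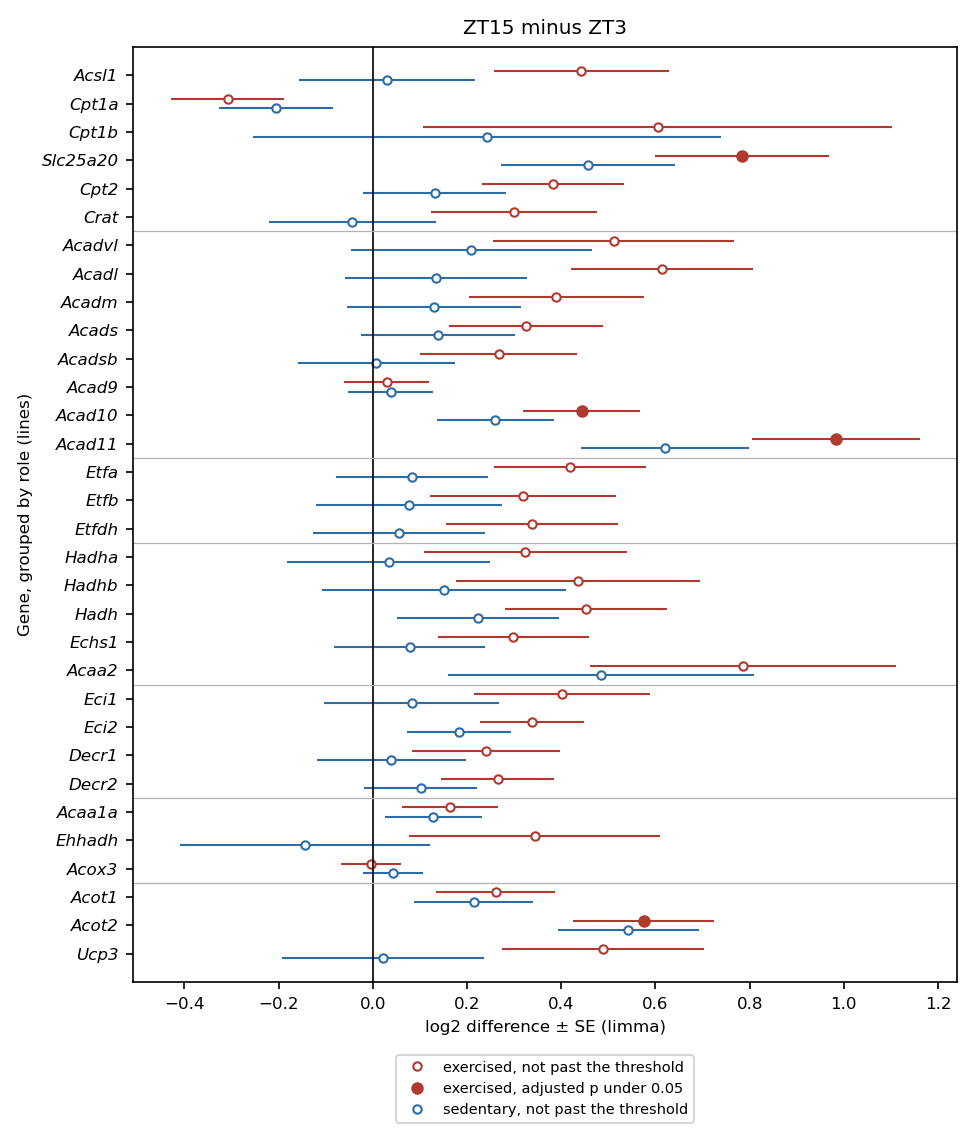
Each row is a gene, grouped by role, with the log2 difference of ZT15 minus ZT3 ± SE from limma on the horizontal axis, exercised mice in red above sedentary mice in blue, and filled points for adjusted p under 0.05. The filled points are Slc25a20 (0.78), Acad10 (0.44), Acad11 (0.98) and Acot2 (0.57) in exercised mice, and Cpt1a lies left of 0 in both.

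By role, the carnitine shuttle held the single gene with both time differences below 0. Cpt1a was 48.8, 61.4 and 84.4 in ZT15_RUN libraries, against 68.9, 73.2 and 90.2 in ZT3_RUN libraries. In sedentary mice it was 52.0, 73.7 and 82.3 at ZT15, against 65.7, 81.4 and 95.0 at ZT3. The groups overlapped in both treatments. The difference was -0.31 ± 0.12 in exercised mice (limma adjusted p = 0.151), -0.21 ± 0.12 in sedentary mice (adjusted p = 0.539) and -0.26 ± 0.09 in the average (adjusted p = 0.0703). None of these passed.

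Of the other genes that bring chains into mitochondria, Cpt2, which regenerates acyl-CoA inside, gave 0.38 ± 0.15 in exercised mice (limma adjusted p = 0.155) and 0.13 ± 0.15 in sedentary mice (adjusted p = 0.791). Acsl1 was 2144, 3188 and 3748 in ZT15_RUN libraries, against 1208, 2447 and 2776 in ZT3_RUN libraries. Its difference was 0.44 ± 0.19 in exercised mice (adjusted p = 0.179) and 0.03 ± 0.19 in sedentary mice (adjusted p = 0.967). Crat, the carnitine acetyltransferase, gave 0.30 ± 0.18 and -0.04 ± 0.18 in exercised and sedentary mice. For Cpt1b the difference was 0.60 ± 0.50 and 0.24 ± 0.50, with the widest errors of the set.

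The acyl-CoA dehydrogenases, which take the first oxidative step, were all above 0 in both treatments, 8 of 8, with medians of 0.42 in exercised and 0.14 in sedentary mice. Without the Ucp1-rich and Cd79a-rich libraries 4 of 8 were above 0 in exercised mice (median 0.05) and 8 of 8 in sedentary mice (median 0.12). Besides Acad11 and Acad10 none passed. Acadl, the long-chain enzyme, gave 0.61 ± 0.19 in exercised mice (limma adjusted p = 0.0729) and 0.13 ± 0.19 in sedentary mice (adjusted p = 0.838). Acadm gave 0.39 ± 0.18 in exercised mice and Acadvl, the very-long-chain enzyme, 0.51 ± 0.26. Acads (short-chain) gave 0.32 ± 0.16, Acadsb (short branched chains) 0.27 ± 0.17 and Acad9, which also serves in complex I assembly, 0.03 ± 0.09.

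The electron acceptors of these enzymes, Etfa, Etfb and the oxidoreductase Etfdh, lay between 0.32 and 0.42 in exercised mice and between 0.06 and 0.08 in sedentary mice, and none passed. The later steps of the cycle, Hadha, Hadhb, Hadh, Echs1 and Acaa2, lay between 0.30 and 0.79 in exercised mice and between 0.03 and 0.48 in sedentary mice, and none passed. Hadha gave 0.32 ± 0.21 and Hadhb 0.44 ± 0.26 in exercised mice, against 0.03 ± 0.21 and 0.15 ± 0.26 in sedentary mice. For Acaa2 the exercised values were 121, 180 and 598 at ZT15, against 100.5, 125 and 231 at ZT3, with a difference of 0.79 ± 0.32 (limma adjusted p = 0.172).

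Among the enzymes for unsaturated chains, Eci1, Eci2, Decr1 and Decr2 lay between 0.24 and 0.40 in exercised mice and none passed there, with Eci2 nearest at 0.34 ± 0.11 (limma adjusted p = 0.0823). The 3 genes placed in the peroxisomal role had the smallest median by role, 0.16 in exercised mice and 0.04 in sedentary mice. This role leaves out Decr2 and Eci2, placed above by their reaction, and so does not cover every peroxisomal enzyme. Acaa1a, a thiolase, gave 0.16 ± 0.10 in exercised mice, Ehhadh, a hydratase and dehydrogenase in 1 protein, 0.34 ± 0.27, and Acox3 -0.00 ± 0.06. Ucp3, an inner membrane protein of the uncoupling family that is abundant in muscle, gave 0.49 ± 0.21 in exercised mice (adjusted p = 0.196) and 0.02 ± 0.21 in sedentary mice (adjusted p = 0.980). Its highest value, 133, stood in ZT15_RUN_6.

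Exercise itself, which the study set out to compare at each time, moved none of the 32 genes past the threshold. At ZT15, 0 of 32 were called by limma, where 0.641% of all genes were, and 0 had an unadjusted p under 0.05, where 12.7% of all genes had. At ZT3, 0 of 32 were called, where 0% of all genes were, and 0 had an unadjusted p under 0.05, where 2.27% of all genes had. Both counts of called genes stayed at 0 in edgeR, in DESeq2, in the other alternative settings and in every omission of 1 library. Over all genes edgeR called 0.745% and DESeq2 3.46% at ZT15, and both called 0% at ZT3. No gene of the set separated the RUN from the SED libraries at either time. Over all genes, RUN lay wholly above SED for 1.00% and wholly below for 0.745% at ZT15, and for 0.0493% and 0.0246% at ZT3.

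At ZT15 the smallest p belonged to Acsl1, with 2144, 3188 and 3748 in ZT15_RUN libraries, against 1792, 2342 and 2676 in ZT15_SED libraries. Of the RUN libraries 4 lay above all SED libraries and the other 2 within their range. The difference was 0.36 ± 0.19 (limma adjusted p = 0.422), with a 95% interval of -0.02 to 0.75. Acadl gave 0.36 ± 0.19 (adjusted p = 0.457) and Cpt1a -0.20 ± 0.12 (adjusted p = 0.517).

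The differences at ZT15 were above 0 for 29 of 32 genes, with a median of 0.16, where 50.7% of all genes were above 0. Of the named genes, Slc25a20 gave 0.28 ± 0.18, Hadha 0.28 ± 0.21, Acadvl 0.27 ± 0.26, Hadhb 0.25 ± 0.26, Acadm 0.24 ± 0.18, Cpt1b 0.23 ± 0.50 and Ucp3 0.21 ± 0.21. Crat gave 0.17 ± 0.18, Cpt2 0.15 ± 0.15, Acot2 0.11 ± 0.15 and Acot1 0.10 ± 0.13. Without the 3 Ucp1-rich libraries, 2 of them RUN and 1 SED, the median was -0.01 with 14 genes above 0, and without these and the Cd79a-rich libraries it was -0.06 with 9 above 0. At ZT15, 16 of 16 muscle genes were above 0 (median 0.87), 16 of 16 mitochondrial content genes (median 0.14) and 0 of 20 lymphocyte genes (median -1.54). Of the 10 white adipocyte genes 8 were above 0 (median 0.17) and of the 10 thermogenic genes 9 (median 0.29).

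At ZT3 the differences were small. They were above 0 for 3 of 32 genes (Acox3, Acot1 and Acot2), with a median of -0.07, where 51.8% of all genes were above 0. The smallest p belonged to Acad10 (-0.16 ± 0.12), Ucp3 (-0.26 ± 0.21) and Ehhadh (-0.28 ± 0.27), each with a limma adjusted p of 0.989. Without the Cd79a-rich library ZT3_RUN_4 the median was 0.03 with 22 genes above 0. Without the libraries with Myh4 above 5000 it was -0.18 with 0 above 0. All 20 lymphocyte genes were above 0 at ZT3 (median 0.76) and all 16 muscle genes below 0 (median -0.41). Below 0 were also 9 of 10 white adipocyte genes (median -0.14), 7 of 10 thermogenic genes (median -0.20) and 14 of 16 mitochondrial content genes (median -0.04).

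**Figure D5:**
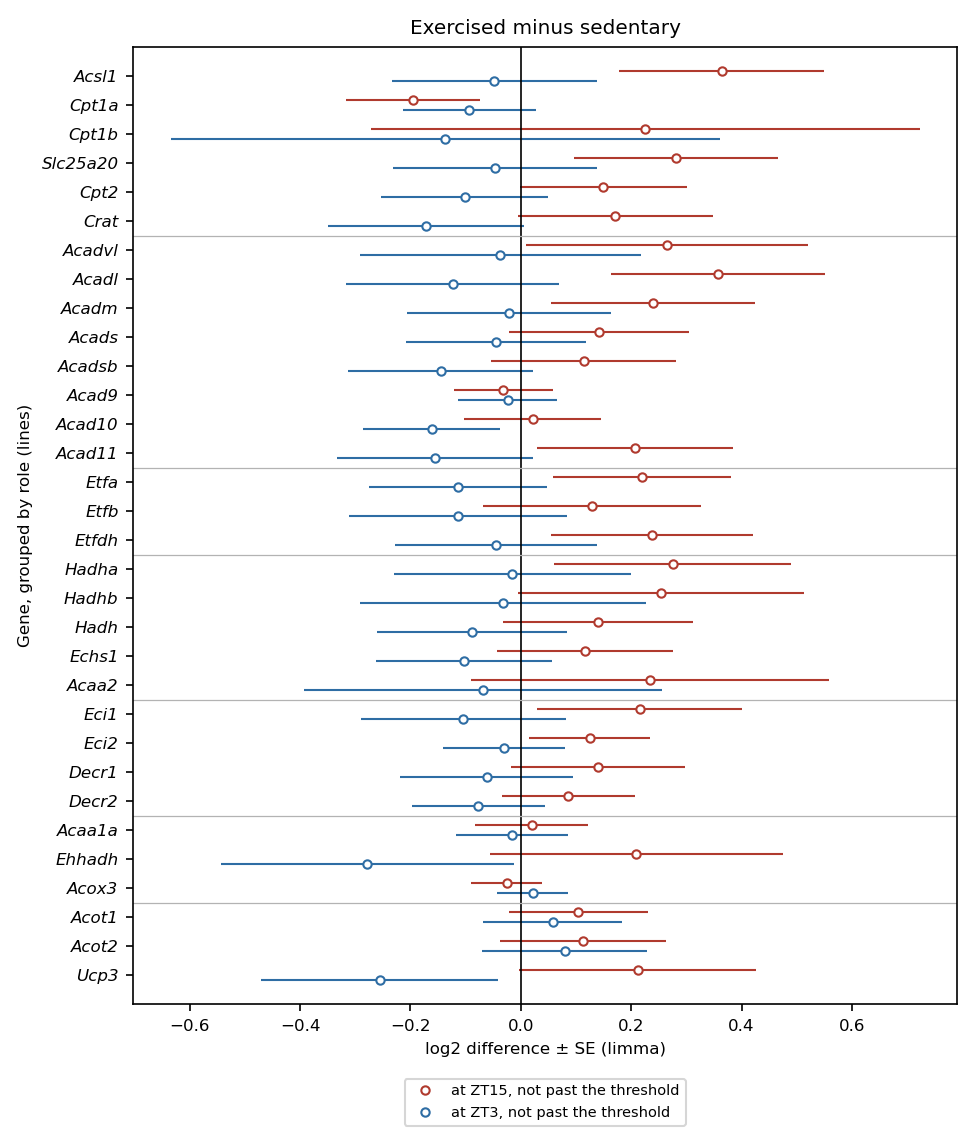
Each row is a gene, grouped by role, with the log2 difference of exercised minus sedentary ± SE from limma on the horizontal axis, ZT15 in red above ZT3 in blue. No point is filled, since none passed, and the ZT15 values reach 0.36 (Acsl1 and Acadl) while most ZT3 values lie just left of 0.

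The test of whether the exercise difference itself depended on time called 0 of the 32 genes in limma, where 0% of all genes were called, and 0 had an unadjusted p under 0.05, where 7.84% of all genes had. The count was also 0 in edgeR, which called 0% of all genes, and in DESeq2, which called 1.47%. The interaction was above 0 for 29 genes, with a median of 0.26, where 50.7% of all genes were above 0. It was led by Acadl (0.48 ± 0.27, limma adjusted p = 0.584), Acsl1 (0.41 ± 0.26, adjusted p = 0.602) and Ucp3 (0.47 ± 0.30, adjusted p = 0.604). Without the Ucp1-rich and Cd79a-rich libraries the median was -0.10. The larger time difference of exercised mice is this same interaction, and so it did not pass for any gene of the set.

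Control genes of the pathway were listed separately, 15 in all. Between ZT15 and ZT3, 4 of 15 passed in exercised mice, all higher at ZT15, where 4.19% of all genes passed and 2.56% with a higher value, and none passed in sedentary mice, where 1.18% of all genes did. Pdk4, the kinase that turns off pyruvate dehydrogenase and so spares glucose, rose by 1.68 ± 0.34 (limma adjusted p = 0.00606) in exercised mice. Nrip1, a corepressor of oxidative genes, rose by 0.85 ± 0.16 (adjusted p = 0.00317), Lpin1, a phosphatidate phosphatase and coactivator, by 0.82 ± 0.20 (adjusted p = 0.0217) and Acacb, which makes malonyl-CoA at mitochondria, by 0.91 ± 0.26 (adjusted p = 0.0495). Without the Ucp1-rich libraries only Nrip1 of these 4 passed (0.90 ± 0.18, limma adjusted p = 0.0167), where 1.34% of all genes did, and Pdk4 gave 1.27 ± 0.33 (adjusted p = 0.0655). Without the Cd79a-rich libraries Acacb no longer passed (0.80 ± 0.28, limma adjusted p = 0.107) and Prkaa1 did, where 4.10% of all genes passed. Without both kinds of library only Nrip1 passed, where 1.82% of all genes did. The exercised count was 3 in edgeR, which called 4.58% of all genes, and 6 in DESeq2, which called 9.79%. The sedentary count was 1 in each (Prkaa1), where edgeR called 1.18% of all genes and DESeq2 3.38%. In sedentary mice the smallest p belonged to Prkaa1, a catalytic subunit of AMP-activated kinase (-0.32 ± 0.08, adjusted p = 0.0521), and Nrip1 (0.45 ± 0.16, adjusted p = 0.197).

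Under exercise none of the 15 passed in limma. At ZT15 Pdk4 gave 1.34 ± 0.34 (limma adjusted p = 0.0613) and Lpin1 0.66 ± 0.20 (adjusted p = 0.122), and 3 of the 15 had an unadjusted p under 0.05, where 12.7% of all genes had. At ZT3 Prkaa1 (-0.11 ± 0.08) and Ppard, a PPAR receptor (-0.21 ± 0.15), both had an adjusted p of 0.989, and 0 had an unadjusted p under 0.05, where 2.27% of all genes had. At ZT15 edgeR called 1 (Pdk4), where it called 0.745% of all genes. DESeq2 called 3 there (Ppargc1a, Pdk4 and Lpin1), where it called 3.46% of all genes. At ZT3 both called 0, where both called 0% of all genes. Ppargc1a was 218 in ZT15_RUN_6 and 111 in ZT15_RUN_1, both Ucp1-rich, and at most 68.8 in the other ZT15_RUN libraries. Pdk4 was 2298 and 1225 in the same libraries, and 600, 441, 942 and 1040 in the other ZT15_RUN libraries. In ZT15_SED libraries Ppargc1a ran between 12.3 and 42.5 and Pdk4 between 252 and 513. In the Ucp1-rich ZT15_SED_1 they were 42.5 and 440. Without the Ucp1-rich libraries limma called 0% of all genes for exercise at ZT15, and edgeR and DESeq2 were not run.

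Of 41 further acyl-CoA and carnitine genes in the table, 1 passed between ZT15 and ZT3 in exercised mice, where 4.19% of all genes passed, and none in sedentary mice, where 1.18% did. Acot4, the peroxisomal thioesterase beside Acot1 and Acot2, rose by 1.04 ± 0.19 (limma adjusted p = 0.00320), and gave 0.69 ± 0.19 (adjusted p = 0.0764) in sedentary mice. Without the Ucp1-rich and Cd79a-rich libraries the exercised difference was 0.88 ± 0.20 (adjusted p = 0.0294). The exercised count was 1 in edgeR, which called 4.58% of all genes, and 5 in DESeq2, which called 9.79%. The sedentary count was 0 in edgeR, which called 1.18% of all genes, and 1 in DESeq2, which called 3.38%. In sedentary mice the next smallest p was that of Acot9, a mitochondrial thioesterase (-0.19 ± 0.08, adjusted p = 0.344). Under exercise none of the 41 passed in limma at either time, and 3 had an unadjusted p under 0.05 at ZT15, where 12.7% of all genes had, and 0 at ZT3, where 2.27% had. edgeR called 0 at both times, where it called 0.745% of all genes at ZT15 and 0% at ZT3. DESeq2 called 1 at ZT15 (Hacl1) and 0 at ZT3, where it called 3.46% and 0% of all genes. At ZT15 the 41 genes were led by Hacl1, a lyase of alpha-oxidation (0.80 ± 0.21, limma adjusted p = 0.0793), and Slc22a5, the carnitine importer (0.32 ± 0.12, adjusted p = 0.282). At ZT3 they were led by Acox2 (0.32 ± 0.19) and Acad12 (-0.19 ± 0.15), both with an adjusted p of 0.989.

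Marker genes of fat and of other tissues gave no limma call between ZT15 and ZT3. For Ucp1 the time difference was 1.74 ± 1.35 in exercised mice and 1.11 ± 1.35 in sedentary mice, and for Myh4 it was -0.41 ± 2.00 and -2.40 ± 2.00. Adipoq gave 0.17 ± 0.22 and -0.15 ± 0.22, and Plin1, the perilipin of fat droplets, 0.22 ± 0.18 and -0.07 ± 0.18. Cd79a gave -1.05 ± 0.91 and 1.48 ± 0.91, and Alb, the liver's albumin, -0.03 ± 0.27 and 0.50 ± 0.27. The summed signal of the 10 thermogenic genes ran between 296 and 2151 in ZT15_RUN, 393 and 1072 in ZT15_SED, 339 and 684 in ZT3_RUN, and 512 and 929 in ZT3_SED. For the 16 muscle genes it ran between 395 and 91696, 159 and 73935, 950 and 29547, and 97.4 and 41851 in the same groups, and for the 20 lymphocyte genes between 22.2 and 45.6, 28.0 and 1679, 26.1 and 2429, and 27.4 and 54.1. No muscle or lymphocyte gene of these lists was at 0 in any library, and 1 thermogenic gene was at 0 in a ZT15_SED library. With the thermogenic score as a covariate, 2 of the 32 genes passed between ZT15 and ZT3 in exercised mice, where 2.29% of all genes did, and 2 in sedentary mice, where 1.59% did.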

How the data were processed

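Inguinal fat RNA was sequenced in 24 libraries as ribosome-depleted, stranded total RNA, per the labels' protocols. Per the submitters' processing notes the tools included featureCounts, STAR, limma 3.48.3 and Subread 1.6.2, whose roles and order are not stated. Genome build, annotation and strand setting were not given in the sources used here. The deposited table holds 1 normalized signal value per gene and library, made by the authors. All values (100%) were whole multiples of 1 read within a tolerance of 0.01 of a read, and the recovered reads summed to 18.5 to 34.7 M (mega) reads per library. In 60 comparisons of libraries within groups the chi-square over genes was at least 22.8 times its degrees of freedom. No pair within a group was therefore the same library repeated. Pairs across groups were not compared, and the test cannot tell whether libraries shared a mouse.

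Values were tested as log2(value + 1) with limma 3.58.1 in R 4.3.3, in 1 group-means model over all 24 libraries with an intensity trend. The fit was also run beforehand on simulated data, whose planted changes were larger than any difference of the set. That run therefore says nothing about the recovery of changes as small as these. edgeR 4.0.16 and DESeq2 1.42.0 on the recovered reads were alternatives, as were pseudocount, filter, scaling, covariates, library weights and left-out libraries. The value + 1 scale understates changes of low genes. The members, roles and gene lists were chosen with earlier results of these data known. Named genes were those past the threshold, the 3 smallest p per comparison and 14 listed enzymes, and for the 2 other pathway lists those past the threshold or else the 2 smallest p. The mitochondrial covariate, the joint omission of 2 kinds of library and the averaged time comparison were added after seeing the data. Lengths per kb are of the longest principal transcript in GENCODE M21. Acot3, Ttr and Umod were not analysed here. Reads of close copies (Acot1, Acot2 and Acot4; Acad10 and Acad12; Acaa1a and Acaa1b) may have been shared. Counting error aside, the depth gives no measure of the spread between animals.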

Additional observations from a re-analysis of the deposited data

Results flagged for a closer look

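Of 128 groups of 6 libraries examined (32 genes in 4 groups), 9 held a library far from the rest of its group, 7 low and 2 high, and chance gives about 1 in 20. In ZT3_RUN_4, the Cd79a-rich library, 4 genes were low: Acad11 had 101 (nearest 159), Acadsb 146 (nearest 245), Ehhadh 44.0 (nearest 73.5) and Etfa 106 (nearest 178). In ZT15_SED_5, the other library poor in Adipoq, Acadsb had 176 (nearest 298) and Eci2 62.4 (nearest 77.8). Cpt1b was low in ZT3_SED_3, at 0.753 (nearest 2.04). The high values were Cpt1a in ZT3_RUN_2, at 90.2 (nearest 75.1), and Acot2 in ZT3_RUN_6, at 18.0 (nearest 13.1). The part of lymph node tissue in these values was not tested.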

How the results depend on the processing

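Over 18 alternative settings no called value changed sign, and the counts under exercise at ZT15, exercise at ZT3 and the interaction were 0 of 32 in every setting and every omission of 1 library. For ZT15 against ZT3 in sedentary mice the count of 0 became 1 with only the groups compared in the model, 3 with muscle and lymphocyte covariates, 2 with the thermogenic covariate, 2 with array weights, 2 in DESeq2, 1 without the Cd79a-rich libraries and 2 with the mitochondrial covariate, and 0 to 1 with 1 library left out (1 without ZT3_RUN_4, ZT15_RUN_6 or ZT15_SED_5). The share of all genes called there, 1.18% as reported, moved too. It was 3.44% with muscle and lymphocyte covariates, 1.59% with the thermogenic covariate and 3.38% in DESeq2. Without the Cd79a-rich libraries it was 1.57%, and with the mitochondrial covariate 1.55%. In exercised mice the count of 4 became 1 with only the groups compared, 2 with the thermogenic covariate, 7 in DESeq2, 2 without the Cd79a-rich libraries, 1 without the Ucp1-rich, 1 without the Myh4-rich, 1 without the Cd79a-rich and Ucp1-rich together and 2 with the mitochondrial covariate. The share of all genes called in exercised mice, 4.19% as reported, moved too. It was 2.29% with the thermogenic covariate, 9.79% in DESeq2 and 2.15% with the mitochondrial covariate. It was 4.10% without the Cd79a-rich libraries, 1.34% without the Ucp1-rich, 1.21% without the Myh4-rich and 1.82% without the Cd79a-rich and Ucp1-rich together. The exercised count of the set was 1 to 8 with 1 library left out: 1 without ZT15_RUN_1, 8 without ZT15_RUN_2, and 2 without ZT15_RUN_4, ZT15_RUN_5, ZT15_RUN_6, ZT3_RUN_1, ZT3_RUN_2, ZT3_RUN_3 or ZT3_RUN_4. In the average the count of 5 became 12 with muscle and lymphocyte covariates, 8 with array weights, 8 in DESeq2, and 3 without the Ucp1-rich, 3 without the Myh4-rich and 3 without the Cd79a-rich and Ucp1-rich libraries, and was 4 to 9 with 1 library left out (9 without ZT15_RUN_2). The share of all genes called in the average, 7.37% as reported, was 18.5% with muscle and lymphocyte covariates and 10.1% in DESeq2. It was 4.05% without the Ucp1-rich libraries, 2.91% without the Myh4-rich and 6.55% without the Cd79a-rich and Ucp1-rich. Without the Cd79a-rich and Ucp1-rich libraries the median of the interaction was -0.10 and that of the exercised time difference 0.030. Leaving libraries out also leaves fewer samples, and the cause of the other shifts was not tested. Over all genes the counts ran between 0 and 561 for exercise at ZT15 (104 as reported), 47 and 713 for sedentary time (191), 109 and 1590 for exercised time (680), 472 and 3011 for the average (1197) and 0 and 239 for the interaction (0). No paired analysis was possible because the title numbers are all different and the replicate numbers only follow record order; blocks of title numbers were tried and changed none of the counts above by more than 1.5 times. Cpt1b and Acot1, the lowest genes, rest on the fewest reads of the set. The spread of Cpt1b also holds its high values in the Ucp1-rich libraries (16.3, 12.1 and 6.76).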
